A study of Homo sapiens with 6 samples.

Results

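The genes described here encode the machinery of oxidative phosphorylation: 98 protein-coding genes of the 13008 in the authors' comparison table, of which 13 lie in mitochondrial DNA and 85 in the nucleus. They were chosen by symbol and biotype, as rows whose names mark them as subunits of complexes I to V. The rule itself used no measured value, but it was set with earlier results of these data known. The nuclear members comprised 37 subunits of complex I, all 4 of complex II, 8 of complex III, 12 of complex IV and 15 of complex V. The symbols also brought in 7 assembly factors of complex I and 2 genes, ATP5S and ATP5SL, that carry an ATP synthase symbol without being part of the enzyme. The mitochondrial members comprised 7 subunits of complex I, 1 of complex III, 3 of complex IV and 2 of complex V. NDUFA4, which is named as a complex I gene, was counted in complex IV, where its protein resides. All 98 passed the filter on low values, but the comparison table already held only 13008 of the 57773 genes with FPKM. Genes such as COX4I2, at 0 FPKM, were not in it.

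Poly(A)-selected RNA was sequenced from hTERT-RPE1, human retinal pigment epithelial cells immortalised with telomerase, in a line that carries FLAG-tagged FOXM1c, an isoform of the cell cycle transcription factor FOXM1, under doxycycline control. Treated cells (dox, 3 libraries, genotype label FOXM1 overexpression) were given doxycycline at 1 µg/mL, renewed each 24 h, over 48 h. Untreated cells (no dox, 3 libraries, genotype label WT, treatment label none) were of the same line, transgene included. The study's title concerns how CENP-F and FOXM1 regulate centromere and kinetochore genes, so the respiratory chain is read here from data collected for another question. No library analysed here had doxycycline without FOXM1 induction, and doxycycline is itself known to inhibit mitochondrial translation, so effects of the drug and of FOXM1 cannot be told apart.

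The respiratory chain passes electrons from NADH (complex I) and succinate (complex II) through complex III to oxygen at complex IV, and the proton gradient that complexes I, III and IV build drives the ATP synthase, complex V. Its subunits come from separate genomes: mitochondrial DNA is transcribed from each of its strands as long precursors that are cut at intervening tRNAs, while the nuclear subunits are transcribed as ordinary genes, translated in the cytosol and imported. Complex II is encoded by the nucleus alone.

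FOXM1, the check of the labels, stood at 65289, 66830 and 74976 normalised counts in dox replicates 1 to 3 and at 5009, 4383 and 4293 in no dox replicates 1 to 3, a log2 difference of 3.92 (SE 0.10, adjusted p = 4.49e-06, limma). Depth ran from 15094498 to 49882123 reads per library. The dox library was the deeper for each replicate number. Replicates 1 to 3 had 41719959, 49882123 and 25148936 reads in dox against 31307141, 32280300 and 15094498 in no dox. The replicate 3 libraries of both groups stood apart: they had the fewest reads of their group, the highest share of mitochondrial mRNA, and 24.7 and 30.8 CPM (read counts scaled to equal library totals) over 16 mitochondrial tRNA genes against 108 to 194 CPM in the other 4 libraries. The part of these differences in the results was not tested, and each main count is also given without each pair of libraries. The epithelial keratins KRT8 and KRT18 and the mesenchymal VIM were abundant in every library, and the pigment epithelium regulators MITF and OTX2 were present at low levels. Other markers of these lists were at or near 0, among them the keratin KRT19, CDH1, EPCAM, the mesenchymal COL1A2, RPE65 and TYR. The blood genes PTPRC and HBB were at or near 0 too. With the replicate block described below, both keratins tested rose (KRT8 by 0.29 and KRT18 by 0.32 on the log2 scale) and, of 4 mesenchymal markers tested, THY1 fell by 0.27. Their part in the results was not tested.

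Mitochondrial transcripts were far more abundant than nuclear ones. Per kilobase of merged exon, the 13 mitochondrial genes had a median of 1897 CPM in the no dox libraries (range 814 to 3556), and the 85 nuclear genes a median of 22.8 (range 0.838 to 258). The highest nuclear levels on this scale belonged to ATP5B, the catalytic beta subunit of the ATP synthase, at 258 CPM per kilobase, and NDUFS5, a small accessory subunit of complex I, at 203. By complex, the nuclear medians were 15.5 for complex I, 14.3 for complex II, 36.1 for complex III, 44.2 for complex IV and 34.1 for complex V. The assembly factors of complex I had a median of 4.28. Complexes III, IV and V thus had higher nuclear medians than complexes I and II. These levels depend on merged exon lengths, which may differ from those used for counting: SDHC has 14160 merged bases and a deposited width of 6268. ATP5A1 stood at 44.4 CPM per kilobase with 10908 merged bases, against 2322 for ATP5B. Their mean normalised counts were 14178 and 17558. The tissue-restricted isoforms COX4I2, COX6A2 and COX7B2 were listed at 0 FPKM in all 6 libraries, and COX6B2, COX7A1, COX8C and NDUFA4L2 lay at or below 0.116 FPKM, so the isoforms present were COX4I1, COX6A1, COX6B1, COX7A2, COX7B, COX8A and NDUFA4.

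When the groups were compared without regard to replicate number, no member differed at an adjusted p under 0.05 (limma on log2 normalised counts, 0 of 98), where 0.54% of the 13153 tested genes did. At an unadjusted p under 0.05 there were 7 of 98 members, 6 nuclear and higher in dox and 1 mitochondrial and lower, a smaller share than the 13% of all tested genes. The smallest adjusted p of a member was 0.0761, for NDUFA2. edgeR's quasi-likelihood test also called 0 members, and DESeq2 called 2 (NDUFA2 and NDUFS8), where it called 522 genes in all. The authors' deposited table has the same 2 at adjusted p of 0.0145 and 0.0495 with log2 fold changes of 0.42 and 0.37, where 2.78% of its genes passed. Its up and down scores are 0 for both genes.

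Libraries with the same replicate number deviated together, so the same comparison was fitted with the replicate number as a block. The estimated differences are the same in that fit, but their error is estimated anew (for MT-CO1 an SE of 0.057 in place of 0.30). Per gene, 2 residual degrees of freedom remain in place of 4. It called 15 of the 98 members: 9 nuclear members higher and 0 lower in dox, and 1 mitochondrial member higher and 5 lower. Over all tested genes it called 22.5%, with 10.2% higher and 12.4% lower in dox. The 9 of 85 nuclear members (10.6%) are thus below the overall share, but all in one direction, and the 6 of 13 mitochondrial members (46.2%) are above it. Mitochondrial transcripts are very abundant, and among the 456 genes with a mean of 10000 or more normalised counts the share called was 35.7%. Below, "rose" and "fell" refer to calls of the fit with the block, none of which was made without it by limma. In bulk RNA, fewer cells of a kind and less RNA per cell cannot be told apart.

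Among the mitochondrial genes, the transcripts of the catalytic subunits of complex IV and of several membrane-arm subunits of complex I fell, and that of the proton channel subunit of the ATP synthase rose. MT-CO1, the catalytic subunit of complex IV (chromosome M, 5904 to 7445 in hg19 coordinates as deposited), stood at 91480, 99183 and 171009 normalised counts in dox and at 122721, 126194 and 208635 in no dox. Replicate 3 was high in each group, so the groups overlapped, but in every pair the dox library was the lower. The log2 difference was -0.35 (95% CI with the block -0.48 to -0.23, adjusted p = 0.00234 with the block and 0.718 without). MT-CO2, which carries the copper site that accepts electrons from cytochrome c, stood at 48831, 45119 and 72513 in dox against 56804, 61729 and 84307 in no dox, a difference of -0.30 (adjusted p = 0.00662 with the block). MT-CO3, the remaining core subunit of complex IV, differed by -0.12 and was not called (adjusted p = 0.177).

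**Figure D1:**
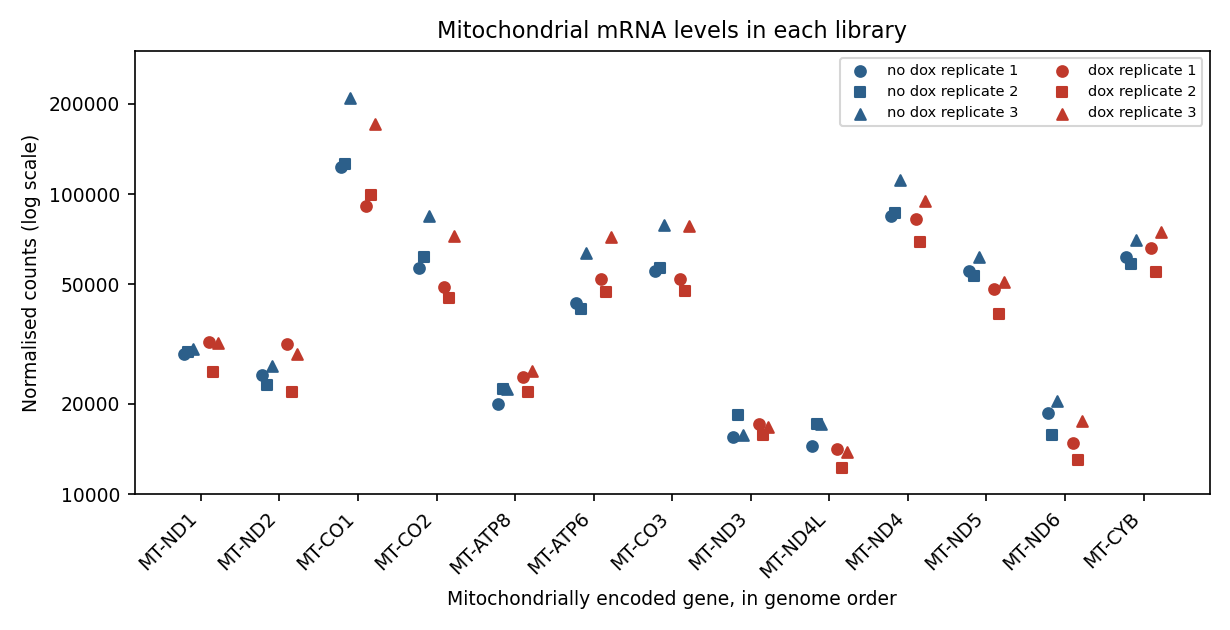
Normalised counts (log scale) of the 13 mitochondrially encoded genes in genome order, 1 point per library, with no dox in blue, dox in red and replicate 1, 2 and 3 as circle, square and triangle. MT-CO1 is the most abundant in all 6 libraries, and replicate 3 of each group is the highest for it, at 208635 and 171009 normalised counts.

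Of the 7 mitochondrial complex I genes, which build the proton-pumping membrane arm, 3 fell. MT-ND5 stood at 48182, 39869 and 51101 in dox and at 55528, 53347 and 61553 in no dox, and the groups did not overlap. Its difference was -0.30 (95% CI -0.42 to -0.18, adjusted p = 0.00436 with the block). MT-ND4L, with 14159, 12229 and 13863 against 14435, 17079 and 17084, did not overlap either and differed by -0.27 (adjusted p = 0.0240), although its first pair differed by only -0.03. MT-ND6 is the only protein gene read from the other strand (chromosome M, 14149 to 14673, minus strand), and its mRNA is known to carry no poly(A) tail. It stood at 14861, 13036 and 17483 in dox against 18718, 15809 and 20479 in no dox, and differed by -0.28 (adjusted p = 0.00168). The sources used here do not say whether reads were counted by strand, so reads antisense to it cannot be told apart from its own. MT-ND4 differed by -0.20 and was not called by limma (adjusted p = 0.0517), but was by edgeR with the block (adjusted p = 0.0306). MT-ND1, MT-ND2 and MT-ND3 differed by -0.01, 0.14 and -0.0014, none called, and the signs of the first and last change under other scalings. MT-CYB, the cytochrome b of complex III, differed by 0.03 and was not called.

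MT-ATP6, which forms the proton channel of the ATP synthase with the c-ring, was the only mitochondrial gene that rose. It stood at 52180, 47052 and 71896 normalised counts in dox against 43481, 41564 and 63562 in no dox, higher in dox in each of the 3 pairs, by 0.26, 0.18 and 0.18 on the log2 scale. The mean difference was 0.21 (95% CI 0.10 to 0.31, adjusted p = 0.0129 with the block and 0.785 without). MT-ATP8, a small membrane subunit, was 0.16 higher and not called (adjusted p = 0.0977), with 24672, 21843 and 25663 against 19994, 22347 and 22396. These genes are read from 1 bicistronic mRNA, and their frames overlap by 46 bases (chromosome M, 8527 to 8572), shown because reads in this stretch fit either gene. The capitals mark the start codon of MT-ATP6 and the stop codon of MT-ATP8. MT-ND4L and MT-ND4 likewise share 1 mRNA and 7 bases (10760 to 10766), with the start codon of MT-ND4 and the stop codon of MT-ND4L in capitals.
MT-ATP8/MT-ATP6: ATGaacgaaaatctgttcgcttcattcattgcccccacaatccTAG
MT-ND4L/MT-ND4: ATGcTAA

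**Figure D2:**
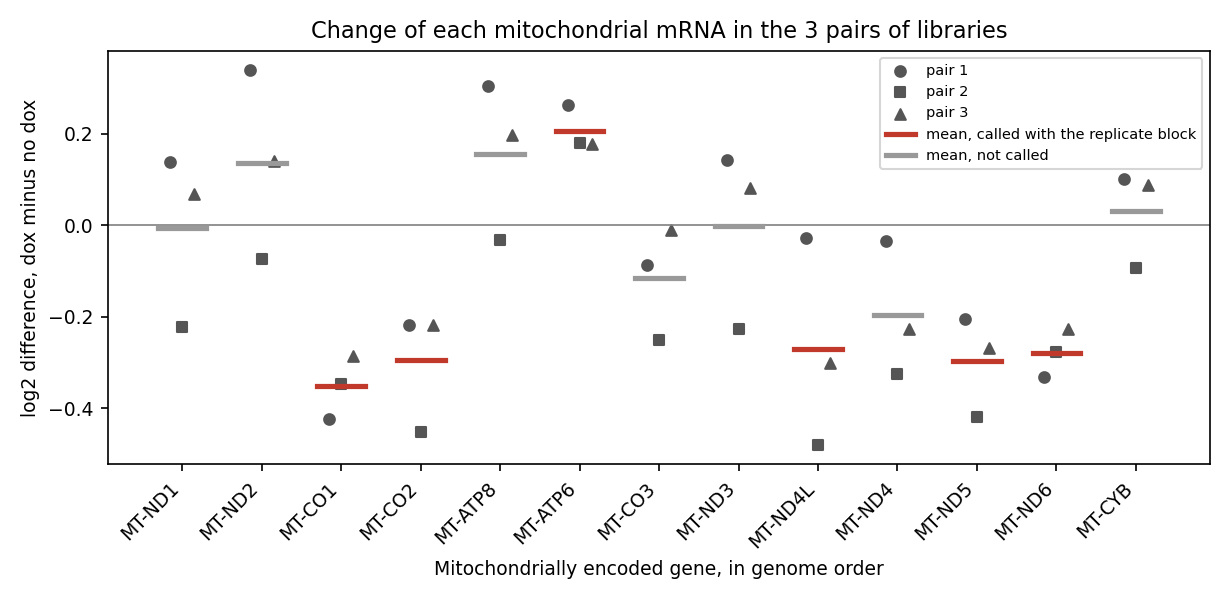
Log2 difference, dox minus no dox, of each mitochondrial gene in genome order, with 1 marker per pair of same-numbered libraries and a bar for the mean, red where the fit with the replicate block called the gene. MT-CO1, MT-CO2, MT-ND5 and MT-ND6 lie below -0.2 in all 3 pairs, and MT-ATP6 is the only gene above 0 in all 3.

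Within the pool of mitochondrial mRNA, MT-ATP6 made up 9.27% ± 0.28 (SD, n = 3) of the reads of the 13 genes in dox and 7.28% ± 0.52 in no dox, and it was the only one of the 13 whose shares did not overlap. MT-CO1 made up 19.3% ± 3.47 and 22.2% ± 3.02, which overlapped. The ratio of MT-ATP6 to MT-CO1 reads, chosen after the values were seen, was 0.570, 0.474 and 0.420 in dox replicates 1 to 3 and 0.354, 0.329 and 0.305 in no dox replicates 1 to 3. The lowest dox ratio, 0.420, exceeded the highest no dox ratio, 0.354. The mitochondrial rRNAs, which are no members, differed by -0.16 (MT-RNR2) and -0.14 (MT-RNR1) and were not called. Of the 16 mitochondrial tRNA genes, which are no members either, 8 were lower and 0 higher in dox with the block. Over all tested genes 12.4% were lower with the block. Without it 0 of the 16 were called. Among the 8 were MT-TA (-0.74, adjusted p = 0.000526 with the block) and MT-TP (-0.47, adjusted p = 0.00290). MT-TA was at 0.278 and 0.265 CPM in the replicate 3 libraries of dox and no dox and at 19.0 to 49.8 CPM in the other 4. Named nuclear copies of mitochondrial genes that were in the comparison table held at most 9.09% of the reads of a gene and its copies (MT-CO3). No copy of MT-CYB, MT-ND1, MT-ND2 or MT-ND3 was in that table. Adding the reads of the copies in it to the genes left 7 calls in edgeR with the block, 1 higher and 6 lower, as without them. The copy MTCO1P12 fell by 0.36 on the log2 scale, as its parent did by 0.35, and the copy MTATP8P1 rose by 0.47.

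Among the nuclear members, calls were spread over all 5 complexes and all were upward. NDUFA2, an accessory subunit of complex I (ENSG00000131495, chromosome 5, 140018325 to 140027370, minus strand), stood at 1780.0, 1635 and 1736 normalised counts in dox and at 1368, 1196 and 1292 in no dox. The groups did not overlap, and the log2 difference was 0.42 (95% CI 0.31 to 0.52, adjusted p = 0.000375 with the block). The annotated span of NDUFA2 overlaps IK and TMCO6 on the opposite strand. NDUFS8, which holds iron-sulfur clusters that lead electrons towards ubiquinone (ENSG00000110717, chromosome 11, 67798084 to 67804111, plus strand), stood at 2790.4, 2759 and 2618 against 2343, 2043 and 1959, also without overlap, and rose by 0.37 (95% CI 0.26 to 0.48, adjusted p = 0.000912). The small accessory subunit NDUFS5 rose by 0.19 (adjusted p = 0.0152). The remaining 34 nuclear complex I subunits were not called. Those farthest down were NDUFA5, at -0.11, and NDUFS3, at -0.10, whose groups did not overlap.

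Of the 3 genes that encode the c-ring, the rotor of the ATP synthase, ATP5G1 rose and the other two were not called. ATP5G1, ATP5G2 and ATP5G3 encode the same mature protein with different import sequences. ATP5G1 (ENSG00000159199, chromosome 17, 46970127 to 46973233, plus strand) stood at 2157, 1589 and 1498 normalised counts in dox and at 1776, 1117 and 1059 in no dox. Replicate 1 was high in each group, so the groups overlapped, but each pair moved up, by 0.43 on average (95% CI 0.30 to 0.56, adjusted p = 0.000842 with the block and 0.464 without). ATP5G2 differed by 0.05 (95% CI -0.06 to 0.15) and ATP5G3 by -0.06 (95% CI -0.15 to 0.04), and the difference between the 3 genes was not tested. The share of c-ring counts from ATP5G1 was 20.4%, 15.98% and 14.5% in dox and 17.1%, 11.6% and 10.9% in no dox. It has 7 named pseudogenes, to which reads of short exons may also align. The other 12 nuclear subunits of complex V, from the catalytic head (ATP5A1 -0.01, ATP5B 0.00, ATP5C1 -0.07) to the membrane subunits (ATP5J2 0.11), were not called and lay between -0.07 and 0.11.

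**Figure D3:**
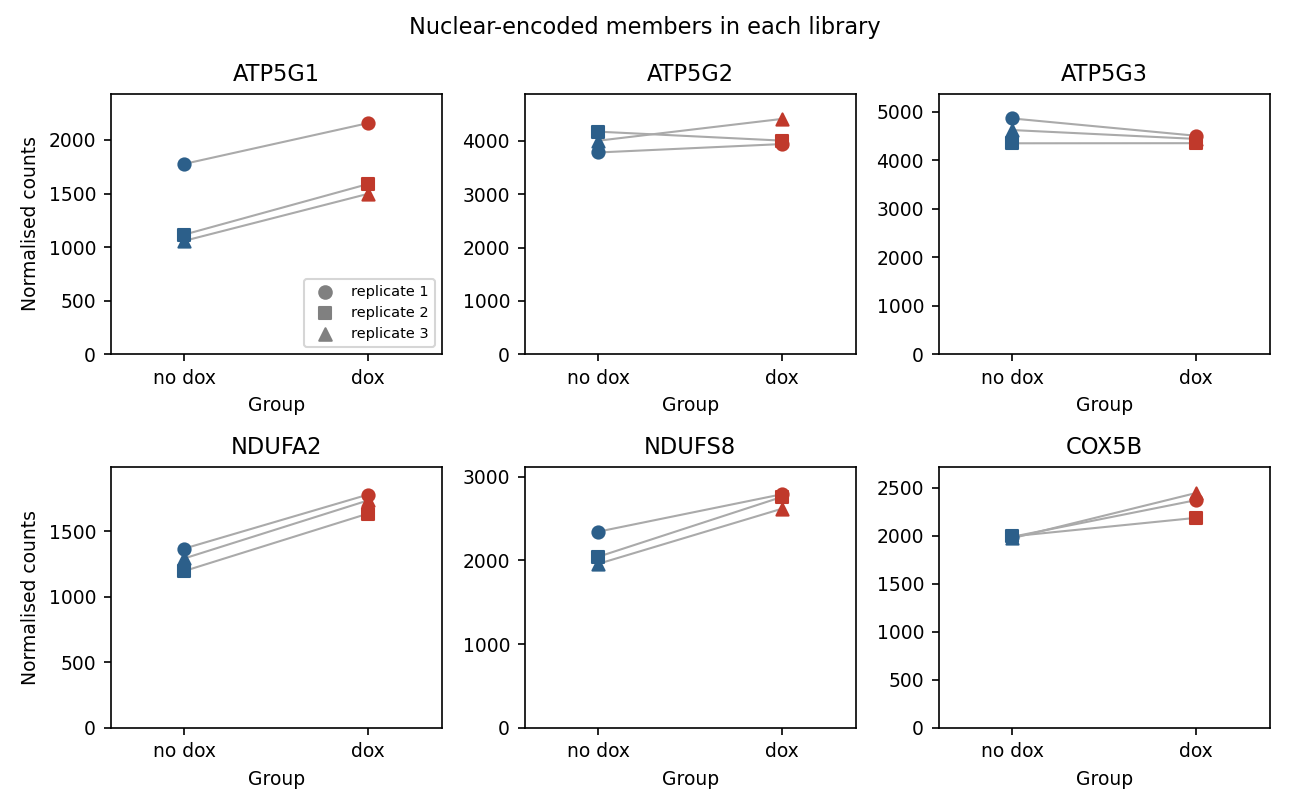
Normalised counts of 6 nuclear members in each library, with lines that join same-numbered no dox (blue) and dox (red) libraries. ATP5G1, NDUFA2, NDUFS8 and COX5B are higher in dox in all 3 pairs, while ATP5G2 and ATP5G3 move by a mean of 0.05 and -0.06 on the log2 scale.

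In the other complexes 1 subunit each rose. COX5B, a peripheral subunit of complex IV on the matrix side (chromosome 2, 98262503 to 98264846), stood at 2369, 2185 and 2443 in dox against 1987, 1992 and 1972 in no dox, with no overlap, a difference of 0.23 (adjusted p = 0.00887 with the block). The other 11 nuclear complex IV genes were not called. They ranged from -0.15 (COX7B) to 0.14 (COX7C, adjusted p = 0.0542), and COX7A2L, which helps join complexes III and IV into supercomplexes, was 0.13 higher (adjusted p = 0.0752). UQCRC1, a core subunit of complex III, stood at 7684, 8766 and 8839 against 7455, 7365 and 7473 and rose by 0.18 (adjusted p = 0.0282). SDHB, the iron-sulfur subunit of succinate dehydrogenase, stood at 1814, 1871 and 1843 against 1684, 1618 and 1633 and rose by 0.16 (adjusted p = 0.0321). The flavoprotein subunit SDHA, by contrast, differed by -0.12 (adjusted p = 0.106) and the membrane anchors SDHC and SDHD by 0.12 and -0.02, none called. Of the assembly factors of complex I, NDUFAF1, which acts early in building the membrane arm, stood at 709, 566 and 570.2 against 583, 447 and 411 and rose by 0.37 (adjusted p = 0.00464), and the other 6 were not called. ATP5SL, now known as DMAC2 and also linked to complex I assembly, rose by 0.31 (adjusted p = 0.00701). It fell outside the rule for naming genes and was named after its value was seen.

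**Figure D4:**
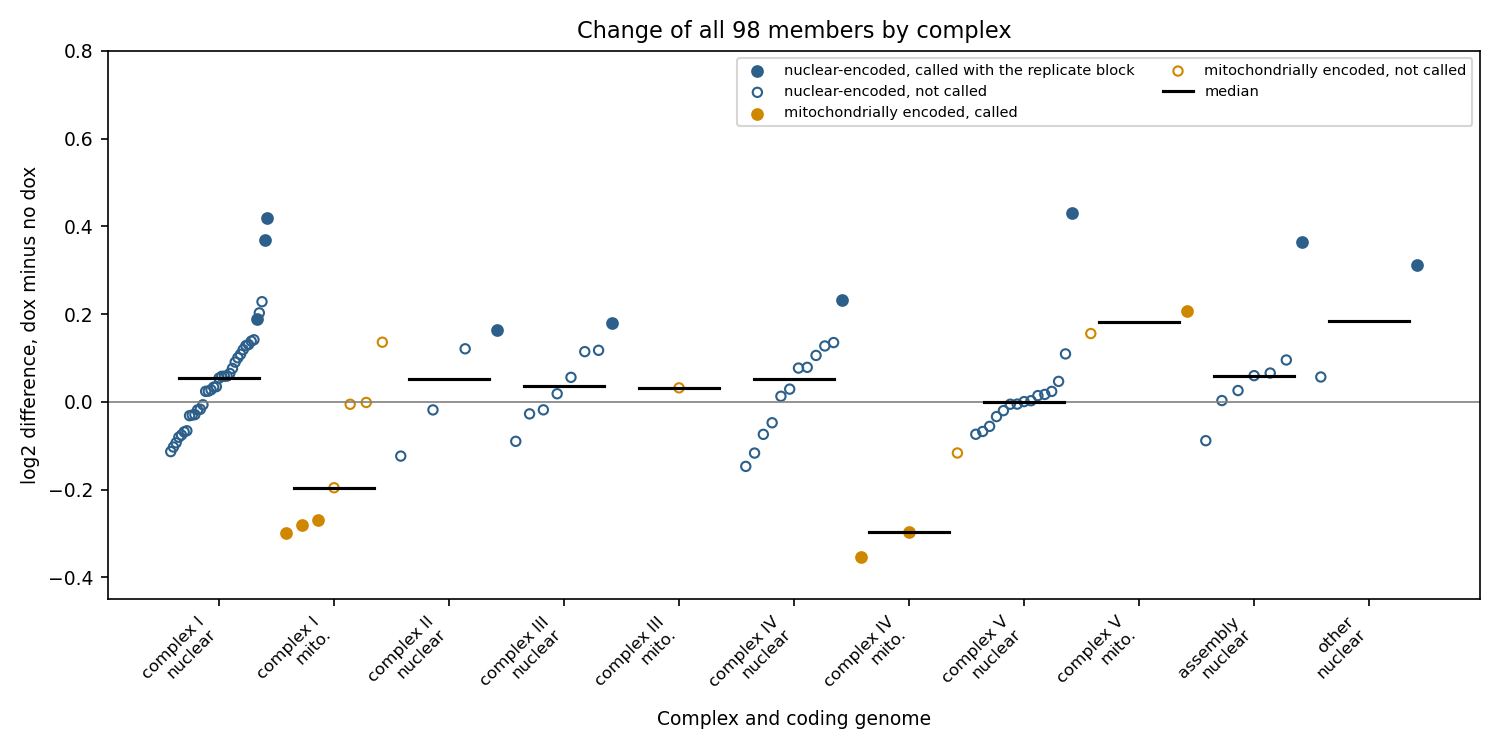
Log2 difference, dox minus no dox, of all 98 members by complex and coding genome (nuclear in blue, mitochondrial in orange), sorted within each group, with filled points for calls of the fit with the replicate block and a line for the median. All filled nuclear points lie above 0, and the mitochondrial medians of complexes I and IV lie at -0.20 and -0.30.

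The calls depended on which pairs were used. With the block and without the replicate 1 libraries, 19 nuclear members (18 higher, 1 lower) and 8 mitochondrial members (1 higher, 7 lower) were called, where 29.2% of all tested genes were, so the nuclear share was below that of all genes. Without the replicate 2 libraries these were 5 nuclear members, all higher, and 3 mitochondrial members, 1 higher and 2 lower, beside 10.8% of all genes. Without the replicate 3 libraries, 4 nuclear members, all higher, and 4 mitochondrial members, all lower, were called, beside 13.5% of all genes. In all 3 of these fits NDUFA2, ATP5G1, NDUFS8 and NDUFAF1 remained called among the nuclear members, and MT-CO1 and MT-ND6 among the mitochondrial ones. MT-ATP6 was called in 1 of the 3, with adjusted p of 0.0844 without replicate 2 and 0.0689 without replicate 3 and differences of 0.22 in each.

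Set side by side, nuclear members leaned up and mitochondrial ones down. Within 0.1 of 0 on the log2 scale lay 55 of the 85 nuclear members and 3 of the 13 mitochondrial members. The median log2 difference was 0.03 over the 85 nuclear members and -0.12 over the 13 mitochondrial members, where that of all tested genes was -0.0022. Of the nuclear members 55 of 85 were above 0, and of the mitochondrial members 4 of 13, or 6 of 13 under TMM or quantile scaling. The dox and no dox groups did not overlap for 14 nuclear members in the higher and 2 in the lower direction, and for 0 mitochondrial members in the higher and 2 in the lower. Over all genes, 9.03% did not overlap in the higher and 10% in the lower direction. The mean of the mitochondrial members minus that of the nuclear members changed by -0.02, -0.29 and -0.14 on the log2 scale in pairs 1 to 3. All 3 were negative, but the average of -0.15 is close to the SD of 0.13 between pairs. Its size rested on single libraries: leaving out dox replicate 2 gave -0.07 and dox replicate 3 gave -0.24, and leaving out no dox replicate 3 gave -0.06 and no dox replicate 1 gave -0.23. The mitochondrial mean alone, -0.10, rested on dox replicate 2: without that library it was 0.00844. It was -0.00516 without no dox replicate 3.

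Counted in reads, nuclear members took 0.677%, 0.684% and 0.696% of the reads of dox replicates 1 to 3 and 0.664%, 0.649% and 0.646% of those of no dox replicates 1 to 3, and the groups did not overlap. In mean log2 normalised counts the nuclear members overlapped, at 10.64, 10.58 and 10.67 in dox against 10.62, 10.52 and 10.58 in no dox. The median log2 difference of all tested genes was 0.0232 with FPKM, which follow read shares, and -0.0022 with normalised counts. Mitochondrial mRNAs took 1.97%, 1.85% and 2.54% of the reads in dox and 2.04%, 2.15% and 2.70% in no dox, which overlapped, since replicate 3 was high in each group. The ratio of mitochondrial to nuclear member reads was lower in dox in every pair: 2.91 against 3.07, 2.71 against 3.32 and 3.65 against 4.18. With 3 libraries a group an exact permutation test cannot give a two-sided p below 0.1, so none is given for these shares.

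**Figure D5:**
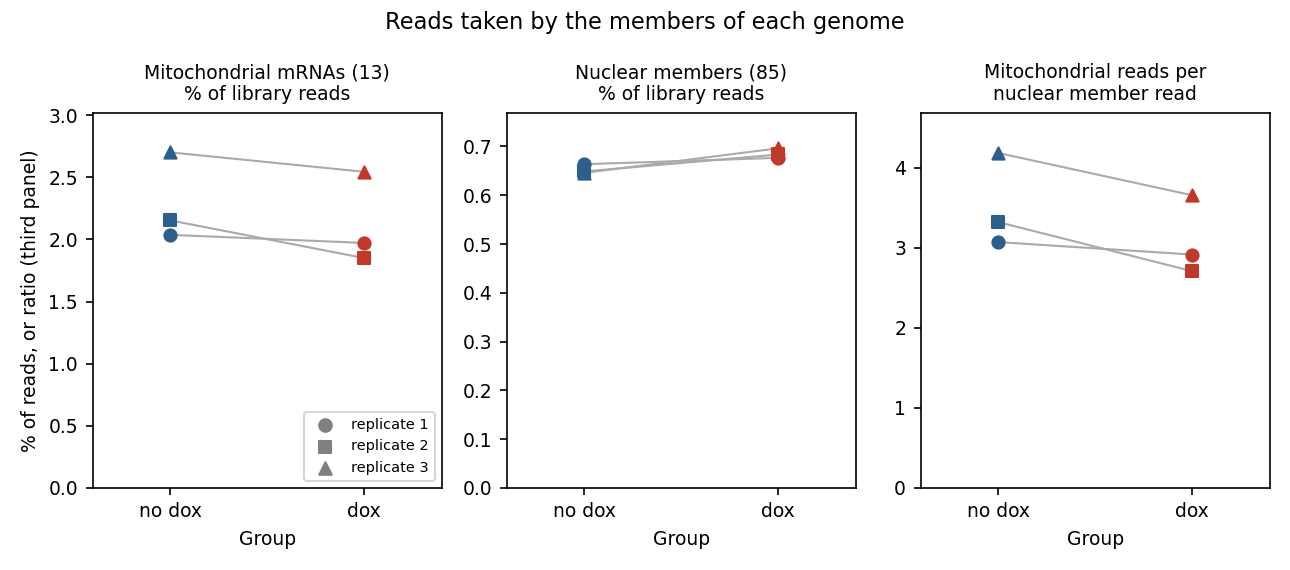
Percent of library reads taken by the 13 mitochondrial mRNAs (left) and by the 85 nuclear members (middle), and the ratio of the former to the latter (right), with lines that join same-numbered libraries. The nuclear share is 0.677% or more in dox and 0.664% or less in no dox, though mean log2 normalised counts of these members overlap. The ratio is lower in dox in each pair and highest in replicate 3 of each group.

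The promoters of 4 of the risers are shown because their rises were among the largest, or, for COX5B, to represent complex IV. Each runs from 250 bases before to 50 after the start of the gene in RefSeq (GRCh38.p14). Capitals mark CCAAT boxes, the binding sequence of NF-Y, and the sequence CCGGAAG of ETS factors such as GABPA, on either strand. The windows are chr17:48892537-48892836 (plus strand), chr5:140647581-140647880 (minus strand), chr11:68030431-68030730 (plus strand) and chr2:97645812-97646111 (plus strand).
ATP5G1: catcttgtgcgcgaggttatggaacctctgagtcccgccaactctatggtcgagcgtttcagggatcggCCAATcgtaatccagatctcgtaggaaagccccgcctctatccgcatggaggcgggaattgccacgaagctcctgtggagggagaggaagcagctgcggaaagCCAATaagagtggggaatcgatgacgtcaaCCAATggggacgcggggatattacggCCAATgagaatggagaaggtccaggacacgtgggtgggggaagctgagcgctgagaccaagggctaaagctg
NDUFA2: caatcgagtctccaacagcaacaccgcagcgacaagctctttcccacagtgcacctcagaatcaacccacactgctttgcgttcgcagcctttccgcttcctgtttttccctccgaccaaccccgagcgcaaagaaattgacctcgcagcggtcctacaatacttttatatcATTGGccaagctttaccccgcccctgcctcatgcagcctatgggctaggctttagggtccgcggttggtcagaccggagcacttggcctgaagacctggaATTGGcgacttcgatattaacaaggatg
NDUFS8: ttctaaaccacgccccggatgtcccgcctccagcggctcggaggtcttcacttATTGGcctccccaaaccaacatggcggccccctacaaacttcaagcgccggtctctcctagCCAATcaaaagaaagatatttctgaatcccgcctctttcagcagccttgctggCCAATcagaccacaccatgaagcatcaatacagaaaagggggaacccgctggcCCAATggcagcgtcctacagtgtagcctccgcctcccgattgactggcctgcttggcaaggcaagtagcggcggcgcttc
COX5B: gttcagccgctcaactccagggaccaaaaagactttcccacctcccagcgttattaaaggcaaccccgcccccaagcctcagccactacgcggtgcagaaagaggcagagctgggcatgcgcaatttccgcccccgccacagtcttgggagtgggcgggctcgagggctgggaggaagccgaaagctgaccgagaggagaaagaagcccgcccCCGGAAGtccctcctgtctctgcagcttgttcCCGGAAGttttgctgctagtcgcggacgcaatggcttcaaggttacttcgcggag

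Promoters were matched for 70 of the 85 nuclear members and searched on both strands. The ETS sequence CCGGAAG was in 20 of them (28.6%), where 12.8% of 22199 coding promoters of the same length held it. The palindrome of NRF1, a regulator of respiratory genes, was in 5 (7.14% against 1.5%), and the motif of YY1 was in 7 (10% against 1.68%). CCAAT was as frequent as elsewhere (34.3% against 34.7%). The forkhead sequence TGTTTAC was in 0 of 70 (2.85% of coding promoters), and TTTGAA or TTCGAA, the core of cell cycle homology elements, in 3 (4.29% against 13.7%). A match is a run of letters and not a measured binding site. No match says only that the letters are not in this window.

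Other genes of mitochondrial energy metabolism were taken from lists chosen by function. None of their genes was called without the block. The machinery that copies, transcribes and processes mitochondrial DNA and RNA had 8 of 30 genes higher and 0 lower with the block, a median log2 difference of 0.12. That is 26.7% of the list, where 22.5% of all tested genes were called with the block, 10.2% higher and 12.4% lower. The largest rises were those of MTERFD3 (0.445) and MTERF (0.391). POLRMT, the mitochondrial RNA polymerase, rose by 0.24. TRMT10C and HSD17B10, subunits of the RNase P that frees tRNAs from the precursor, rose by 0.27 each. PNPT1, a subunit of the RNA-degrading exoribonuclease, rose by 0.26, and LRPPRC, which stabilises mitochondrial mRNAs, by 0.22. TFAM, at -0.02, was among those not called. HSD17B10 stood at 1565, 1194 and 1122 normalised counts in dox against 1277, 1014 and 914 in no dox (adjusted p = 0.00435 with the block and 0.553 without). LRPPRC stood at 4855, 5162 and 4966 against 3826, 4505 and 4549, without overlap.

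Among the 16 nuclear regulators of respiratory genes, MYC rose by 0.23, while the thyroid hormone receptor THRA fell by 0.26, PPARD by 0.17 and GABPA by 0.16. Assembly factors outside the naming of the 98 had 4 of 41 higher and 1 lower, led by TTC19 of complex III (0.34, adjusted p = 0.000769 with the block), with COA1 at -0.25. Of 16 genes of mobile carriers and coenzyme Q synthesis only the kinase-like ADCK3 (0.62) was called. That list also held CYC1, the cytochrome c1 subunit of complex III, whose symbol fell outside the rule (0.12, adjusted p = 0.148 with the block). In the tricarboxylic acid cycle 2 of 19 genes were called, MDH2 up by 0.18 and IDH2, the mitochondrial NADP-dependent isocitrate dehydrogenase, down by 0.47. IDH2 stood at 2275, 2371 and 2306 against 3636, 2901 and 3111, without overlap. Of 10 carriers, SLC25A6, an ADP/ATP exchanger of the inner membrane, rose by 0.39 (19257, 21017 and 23460 against 15635, 16151 and 16625, without overlap), and the uncoupling protein family member UCP2 by 0.54. With the block, 25% of the regulators, 12.2% of the assembly factors and 6.25% of the mobile carrier and coenzyme Q genes were called. For the tricarboxylic acid cycle and the 10 carriers the shares were 10.5% and 20%. Over all tested genes 22.5% were called with the block.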

How the data were processed

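RNA from 6 libraries (3 dox, 3 no dox; poly(A) selection, per the labels' protocols) was read by the submitters with bcl2fastq, Trimmomatic, TopHat and edgeR on hg19, per the submitters' processing notes; versions, annotation and strand setting are not given in the sources used here. The authors deposited a comparison table (13008 genes with CPM, log2 fold changes, p-values, adjusted p-values and up or down scores, per the file headers), FPKM for 57773 genes, and a normalised count signal for 13161. In the deposited FPKM the gene width of 45 of the 85 nuclear members equals the exon bases summed over all their GENCODE 29 transcripts, so levels between genes are given as CPM per kilobase of merged exons, from GENCODE 29 matched by gene ID.

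Normalised counts were tested with limma 3.58.1 (trend) on log2(value + 1), for 13153 genes with at least 10 in at least 3 libraries, with Benjamini-Hochberg adjustment at 0.05. Fold changes are on that scale. limma with the replicate number as a block was run beside it. The numbers come from the sample titles, and same-numbered libraries deviated together from their group means (correlations 0.745, 0.726 and 0.768; at most -0.272 with another number), so they were taken to pair the libraries. Deviations from a group mean sum to 0, so the negative correlations follow in part from the positive ones and are no separate evidence of pairing. CPM values were whole multiples (tolerance 0.01) of 1 read in 100% of cases, so whole reads were recovered, and edgeR 4.0.16 and DESeq2 1.42.0 were run on them. The tests were also run on simulated data in which same-numbered libraries shared a replicate effect. The pairing was thus built in, and that run cannot show whether the block suits these data. The labels do not say whether replicates were separate cultures, and a p-value here covers variation among these libraries, which may be technical.

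Named genes were all mitochondrial members, FOXM1, nuclear members called without the block, the 2 highest, 2 most raised and 2 most lowered of each complex and of the assembly factors, complex II, isoform families, and the 2 smallest adjusted p of each added list with the block; other list genes, the tRNAs and the share ratios were named after their values were seen. Members and lists were chosen with earlier results of these data known. Alternatives were the pseudocount, filter, scaling, FPKM (log2(FPKM + 0.1)), test, block and leaving out libraries.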

Additional observations from a re-analysis of the deposited data

How the results depend on the processing

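The counts of calls changed most with the replicate block. Over all genes limma called 71 without it and 2965 with it, edgeR with the block 3047, DESeq2 522, and limma on FPKM 31; leaving out 1 library gave 3 to 21. Of the nuclear members the block called 9, edgeR with the block 12 and DESeq2 2; of the mitochondrial members the block called 6, edgeR with the block 7, and the same with nuclear copies added 7. With the block and without replicate 1, 2 or 3, limma called 3835, 1414 and 1779 genes, 19, 5 and 4 nuclear members, and 8, 3 and 4 mitochondrial members; these fits and the adding of copies were chosen after seeing the data. The cause of these changes was not tested. The mean differences kept their direction, apart from the mitochondrial mean without dox replicate 2 (0.00844). FOXM1 was called in every fit run. No named member was called by limma without the block, so none could lose a call. DESeq2, run without the block, and the fits with the block added calls.

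Sign changes were seen only in 17 named genes close to 0 or varying between pairs. On the log2 scale, ATP5L (-0.01) became 0.02104 with FPKM, 0.002004 with TMM, 0.01428 with quantile scaling, 0.01763 per nuclear-encoded reads, 0.00575 in edgeR, 0.003519 in DESeq2, and, with the block, 0.009014 without replicate 1 and 0.01551 without replicate 2. MT-ND1 (-0.01) became 0.02111 with FPKM, 0.002179 with TMM, 0.02928 with quantile scaling, 0.0178 per nuclear-encoded reads, 0.009768 in edgeR, 0.007564 in DESeq2, 0.002015 in edgeR with the block, and 0.1035 with the block without replicate 2. MT-ND3 (-0.0014) became 0.0253 with FPKM, 0.006344 with TMM, 0.003717 with median-of-ratios scaling, 0.02197 per nuclear-encoded reads, 0.002823 in edgeR, 0.0001859 in DESeq2, 0.005769 in edgeR with the block, and 0.1117 with the block without replicate 2. SDHD (-0.02) became 0.007766 with FPKM and 0.004151 per nuclear-encoded reads, and with the block 0.02596 without replicate 2 and 0.009663 without replicate 3. Quantile scaling gave ATP5B -0.007613, MT-CO3 0.002575, NDUFAF2 -0.001974 and UQCRB 0.01373. The block without replicate 3 gave ATP5B -0.01475, ATP5G2 -0.0001924, ATP5I -0.03768, COX6A1 -0.03981 and COX7A2 -0.00449, and without replicate 1 MT-CYB -0.002914 and NDUFAF2 -0.02729. Leaving out 1 library gave ATP5B -0.05193 to 0.05498, ATP5G2 -0.003865 to 0.08012, ATP5I -0.02846 to 0.083, ATP5L -0.08839 to 0.09389, ATP5O -0.1384 to 0.0329, COX6A1 -0.2412 to 0.2141, MT-CO3 -0.3327 to 0.04618, MT-CYB -0.06972 to 0.1503, MT-ND1 -0.06333 to 0.1042, MT-ND3 -0.04573 to 0.07549, NDUFA4 -0.2203 to 0.01794, NDUFAF2 -0.1016 to 0.09422, NDUFAF5 -0.0009468 to 0.1893, SDHD -0.09768 to 0.08896, UQCRB -0.07094 to 0.01598, UQCRH -0.08434 to 0.1118. Another scaling moved the median of all genes by at most 0.0254. A minimum of 50 removed NDUFA7. The lowest mean of a member was that of NDUFA7, at 43.1 normalised counts. The part of depth in the results was not tested.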
